A study of Homo sapiens with 22 samples.

Results

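The small leucine-rich proteoglycans are secreted core proteins built of leucine-rich repeats that carry glycosaminoglycan or other sugar chains. RNA levels of 8 of them were examined in cultured human renal proximal tubule epithelial cells (RPTEC): DCN, LUM, BGN, FMOD, OGN, ASPN, PRELP and PODN. The list follows the gene family and was not cut by measured level, but it was chosen with earlier results of these data known. Of the 8 genes, 7 have a row among the 36859 genes of the expression table. PRELP was not analysed here. Of the 7, 3 (DCN, LUM and FMOD) passed a filter of at least 10 normalized counts in at least 2 of the 22 libraries, as did 14585 genes in all.

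Proteoglycans of this family coat collagen fibrils and set their width and spacing. Several also bind growth factors and cell surface receptors, and decorin, the product of DCN, is known for binding TGF-β. In kidney they are mainly products of interstitial and mesangial cells, and decorin and biglycan are classic genes of the fibrotic stroma.

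RNA-seq was carried out on RPTEC immortalized with hTERT, in 11 groups of 2 libraries each. The study asked how loss of SETD2, the enzyme that trimethylates histone H3 on lysine K36, compares with TGF-β in moving these epithelial cells to a mesenchymal state. Cultures in 2% serum were wild-type cells (WT), WT cells given 10 ng per ml TGF-β for 72 h, the SETD2 knockout clones KO1 and KO2, and a line labelled KO2_Rescue. Cultures in regular medium with 10% serum were 2 rescue lines, Rescue1 and Rescue2, and 4 lines of transduced WT cells that carry eGFP (the empty vector), OCT2, PRRX1 or SOX2. KO1 and KO2 are each 1 clone made with the same guide RNA in exon 3 of SETD2. Rescue1 and Rescue2 are clones of KO2 that express a lentiviral SETD2 under blasticidin, and the 4 transduced WT lines are puromycin-selected pools. All cells carry hTERT, and nothing in the labels says that the 2 libraries of a group came from separate cultures, so p-values measure the spread between these libraries only.

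SETD2 RNA had a mean of 1956 normalized counts in WT against 1088 in KO1 and 1051 in KO2, and of 10305 and 10105 in Rescue1 and Rescue2. It averaged 827 in the libraries labelled KO2_Rescue, which is below KO2, so in SETD2 RNA these libraries went against their label. They are called labelled KO2 rescue. PRRX1 and POU2F2 (the gene of OCT2) had means of 0 and 138 in WT, 31.6 and 1841 in KO2, and 0.33 and 710 in these libraries. Of 8 epithelial markers, 6 to 8 were above 3 normalized counts in every group, although CDH1 was 0 in KO1 and Rescue1. Of 14 proximal tubule markers, 7 to 10 were above this floor in every group, with WT means of 3032 for PAX8 and 779 for GGT1, whereas HNF4A, SLC22A6 and SLC22A8 were at 0 in all 22 libraries. CUBN, ANPEP and MME of this list were called higher than WT in both knockout clones. The 2 WT libraries, the reference of several comparisons, stood apart from each other for a number of genes. They held 531.9 and 11919 normalized counts of COL1A1, and their ranges were 4.77 to 124 for AQP1, 78.0 to 787 for KRT7 and 150 to 503 for CDH6. The WT mean of POU2F2 given above likewise came from libraries at 39.3 and 237.2. Approximate depth was 7680000 to 19200000 reads per library, and duplicates differed by a median of 0.064 to 0.174 (absolute log2) over genes that reached 1000 normalized counts. Values below are normalized counts, changes are on the log2(normalized count + 1) scale with their standard error (SE), and a gene was called at a Benjamini-Hochberg adjusted p below 0.05 in limma's moderated test together with an absolute log2 change above 1.

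Of the 7 members with a row, DCN and LUM were the 2 with RNA in most libraries at 10 or more normalized counts. DCN was above 0 in 22 of 22 libraries, with a lowest value of 289.2, a median of 1777 and a highest value of 234809 normalized counts. LUM was above 0 in 19 libraries and reached at least 10 normalized counts in 18, with a median of 62.2 and a highest value of 767.9. These 2 genes lie side by side on the minus strand of chromosome 12 (GRCh38, DCN from 91140484 to 91183217 and LUM from 91102629 to 91111494) with 28990 bases between them.

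**Figure D1:**
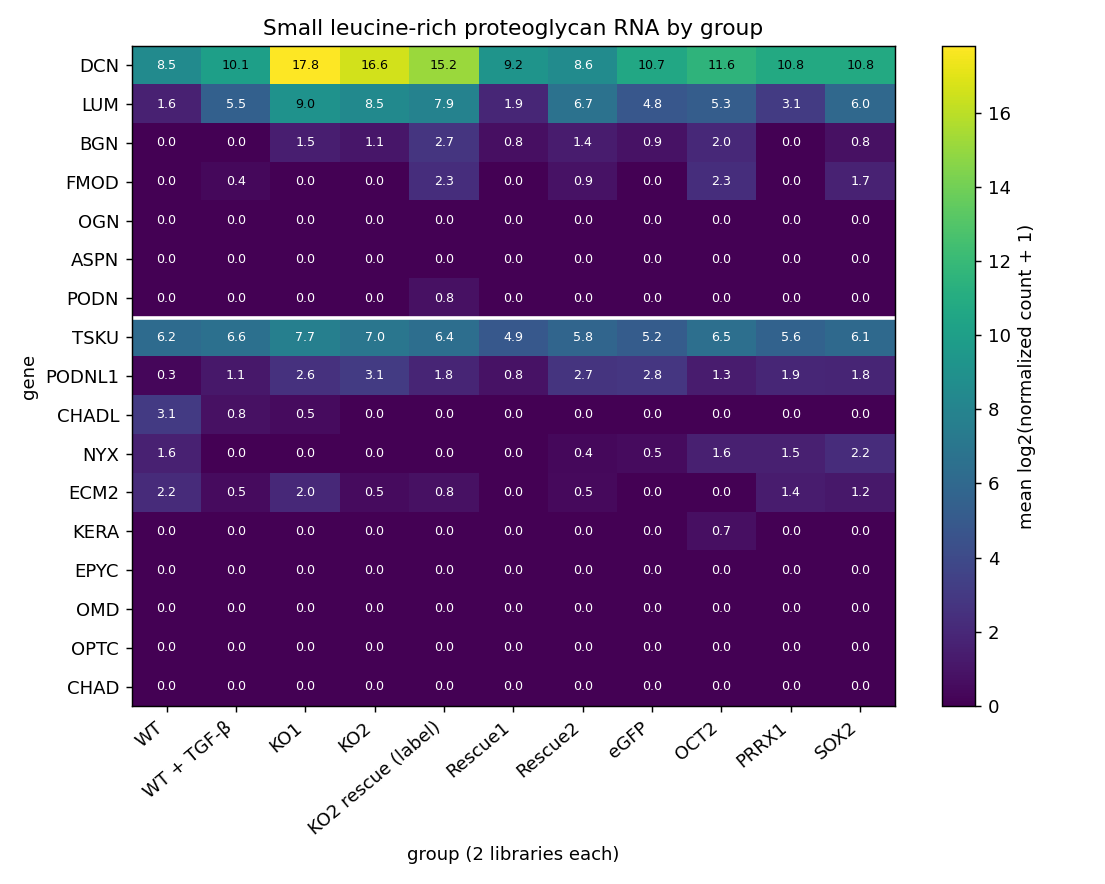
Mean log2(normalized count + 1) of 2 libraries for each small leucine-rich proteoglycan (vertical axis, the 7 listed members above the white line and 10 further family members below it) in each of the 11 groups (horizontal axis). DCN, LUM and TSKU stand out from a family that is otherwise at or near 0, and DCN has its highest mean in KO1.

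DCN encodes decorin, a class I member that binds collagen I and usually carries a chondroitin or dermatan sulfate chain. In 2% serum, the WT libraries held 477.5 and 289.2 normalized counts of DCN. After TGF-β they held 1049 and 1083. The KO1 libraries held 234809 and 221606, and the KO2 libraries 98373 and 94978. Both knockout clones therefore lay far above every WT and TGF-β-treated library, and no group overlapped with another among these 4. The libraries labelled KO2 rescue held 37572 and 35187, below KO2 and above TGF-β-treated WT.

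In 10% serum, the rescue clones were at the other end of the scale. Rescue1 held 610.9 and 577.8 normalized counts of DCN, and Rescue2 held 362.8 and 397.6. The eGFP line held 1485 and 1866, the PRRX1 line 1563 and 1975, and the SOX2 line 1689 and 1943. The OCT2 line was the highest of the transduced lines, with 3121 and 3004. By group mean the order was KO1, KO2, labelled KO2 rescue, OCT2, SOX2, PRRX1, eGFP, TGF-β-treated WT, Rescue1, WT and Rescue2. The neighbours SOX2, PRRX1 and eGFP overlapped in this order, and the 2 Rescue2 libraries fell between the 2 WT libraries.

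Decorin RNA was among the most abundant transcripts in the knockout clones and of middle rank in WT. DCN took 1.41% and 1.32% of all normalized counts in the 2 KO1 libraries and 0.663% and 0.652% in the KO2 libraries, against 0.00367% and 0.00238% in WT. Per kilobase of its longest transcript (6850 bases), its mean level ranked 17 of 13829 tested genes with a length in KO1 and 32 in KO2. The rank was 6065 in WT, 3364 in TGF-β-treated WT, 4844 in Rescue1 and 6123 in Rescue2.

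**Figure D2:**
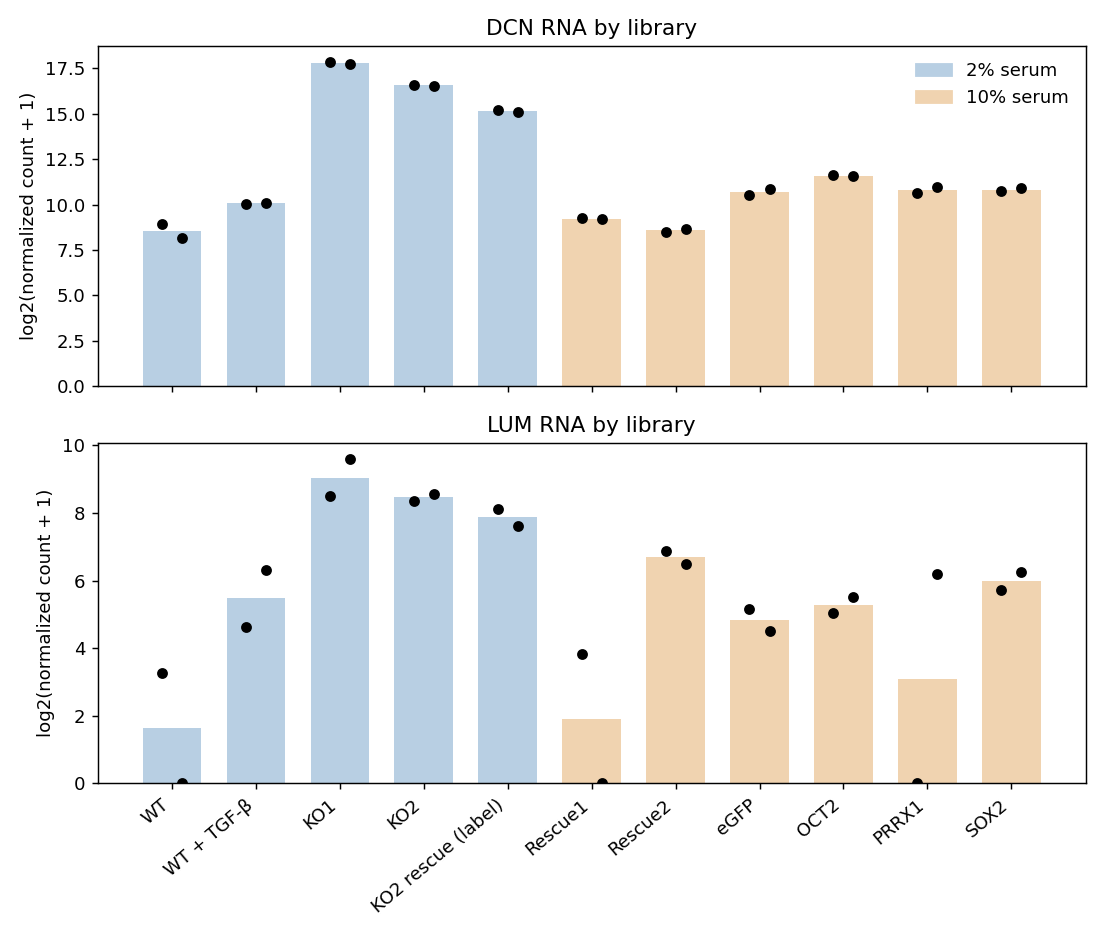
DCN (upper panel) and LUM (lower panel) in log2(normalized count + 1) for each library (points) with the mean of the 2 libraries (bars), by group, coloured by serum. KO1, KO2 and the labelled KO2 rescue are the 3 highest groups for both genes, and the rescue clones bring DCN to 362.8 to 610.9 normalized counts.

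LUM encodes lumican, a class II member with keratan sulfate chains that regulates fibril assembly in cornea and other connective tissue. The WT libraries held 8.7 and 0 normalized counts of LUM, and the TGF-β-treated libraries 23.9 and 78.2. KO1 held 359.0 and 767.9, KO2 held 328.2 and 376.3, and the labelled KO2 rescue held 275.3 and 196.6. All 6 of these libraries lay above the other 16. In 10% serum Rescue1 held 13.3 and 0, whereas Rescue2 held 117.6 and 88.1. The eGFP libraries held 34.5 and 21.6, those of OCT2 31.8 and 44.6, those of PRRX1 0 and 72.0, and those of SOX2 52.3 and 75.8. Rescue2 did not overlap with any of the transduced lines, Rescue1 overlapped with WT, and KO1 overlapped with KO2.

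Per length, lumican stayed a small fraction of decorin. In KO1 the mean level was 211 normalized counts per kilobase for LUM (longest transcript 2671 bases, rank 2692) and 33315 for DCN. In KO2 these levels were 132 and 14113.

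Across the 11 group means, DCN and LUM had a Pearson correlation of 0.795 and a Spearman correlation of 0.727, given as a description because the groups share parental cells, media and a common normalization. By the same measure the tested genes nearest to DCN were H2BC8, a histone H2B gene (r = 0.987), BEX3 (r = 0.981) and UBE2D3, a ubiquitin-conjugating enzyme (r = 0.977). H2BC8 itself was scarce, with a mean of 8.39 normalized counts in WT. It reached 56.0 in KO1 and 45.1 in KO2, against 6.39 in Rescue1 and 5.62 in Rescue2. The genes nearest to LUM were ARHGAP1 (r = 0.941), XAB2 (r = 0.92) and AMN1 (r = 0.92). Those nearest to FMOD were ZNF100 (r = 0.854), AMIGO1 (r = 0.811) and ZNF527 (r = 0.804), on values that were mostly 0.

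The other members with a row were at or near the floor. BGN encodes biglycan, the closest relative of decorin and a known ligand of Toll-like receptors. It was 0 in 11 libraries and reached 5.89 normalized counts at most, in a library labelled KO2 rescue. In both WT and both TGF-β-treated libraries BGN was 0, and in KO1 it was 0.773 and 3.60. FMOD, whose product fibromodulin binds collagen I and guides its cross-linking, was 0 in 16 libraries. It reached 23.3 in 1 library labelled KO2 rescue, 23.1 in 1 OCT2 library and 9.44 in 1 SOX2 library, and the duplicate of each of these 3 was at 0. FMOD was called in none of the 17 comparisons.

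OGN (osteoglycin) and ASPN (asporin, which lacks a glycosaminoglycan chain) were 0 in all 22 libraries, and PODN (podocan) was 2.06 in 1 library labelled KO2 rescue and 0 in the other 21. A value of 0 allows up to 3 counts in a library, which covers counting error only, so lower levels were not detectable at this depth.

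The silent members start in different sequence. In 300-base RefSeq windows of GRCh38.p14, from 250 bases before to 50 after the start, the dinucleotide CG occurred 27 times at PODN, 19 at BGN, 10 at FMOD, 3 at ASPN and 0 in both windows of OGN, against a median of 14 over 35114 windows. Of all windows, 73.8% held at most as many as PODN and 24.5% at most as many as ASPN. PODN (chr1:53061963-53062262, plus strand) and ASPN (chr9:92482457-92482756, minus strand) are shown as near-silent members whose windows hold many and few CG, with each CG in capitals.
PODN: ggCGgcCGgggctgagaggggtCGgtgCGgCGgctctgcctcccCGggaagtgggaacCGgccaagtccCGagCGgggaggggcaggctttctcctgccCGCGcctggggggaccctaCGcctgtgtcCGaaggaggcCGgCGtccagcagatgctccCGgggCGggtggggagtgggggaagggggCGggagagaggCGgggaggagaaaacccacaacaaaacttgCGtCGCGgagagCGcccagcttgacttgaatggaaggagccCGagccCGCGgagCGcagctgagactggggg
ASPN: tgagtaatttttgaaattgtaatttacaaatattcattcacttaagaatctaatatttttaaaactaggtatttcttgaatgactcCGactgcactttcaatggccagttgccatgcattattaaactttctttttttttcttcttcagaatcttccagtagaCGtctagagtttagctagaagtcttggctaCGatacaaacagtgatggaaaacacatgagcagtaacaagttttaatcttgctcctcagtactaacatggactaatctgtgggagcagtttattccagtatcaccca
Such a count describes the letters only. Windows of DCN and LUM were not analysed here, so expressed and silent members were not compared.

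Of the 10 further family members, 8 did not pass the filter, and KERA and EPYC, which share the chromosome 12 cluster with LUM and DCN, were at most 1.76 and 0 normalized counts. OMD and OPTC, in the clusters of OGN and FMOD, were 0 throughout, as was CHAD. TSKU (tsukushi, a secreted modulator of WNT and BMP signalling) was above 0 in every library, at 106.4 and 48.8 in WT, 176.8 and 233.3 in KO1, 94.1 and 161.8 in KO2 and 36.5 and 22.8 in Rescue1. It was called higher in KO1 than in WT (log2 change 1.48) and lower in Rescue1 than in KO2 (-2.06). Both calls depended on single libraries. Without WT replicate 2 the first was 0.93 (adjusted p = 0.237), without KO1 replicate 2 it was 1.28 (adjusted p = 0.129), and with the same total for every library it was 1.08 (adjusted p = 0.0892). Without KO2 replicate 2 the second was -1.67 (adjusted p = 0.0624), and without Rescue1 replicate 2 it was -1.73 (adjusted p = 0.0537). PODNL1 ranged from 0 to 15.7 and was not called in any comparison.

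The first comparison asked what TGF-β does to these genes in WT cells. DCN rose 2.78-fold by group means (log2 change 1.52, SE 0.18, adjusted p = 2.75e-05), and LUM changed by 3.84 (SE 1.58, adjusted p = 0.12), which did not pass. Thus 1 of 3 tested members was called, where 7.84% of all tested genes were called in this comparison, and the median change was 1.52 over the members and 0 over all genes. Fitted on these 4 libraries alone, the DCN change had an adjusted p of 0.12.

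The next comparison asked what loss of SETD2 does, and here DCN and LUM stood furthest from WT. In KO1, DCN was 595-fold above WT by group means (log2 change 9.26, SE 0.18, adjusted p = 1.63e-14) and LUM was 130-fold above (7.40, SE 1.58, adjusted p = 0.00161). In KO2, DCN was 252-fold above WT (8.02, adjusted p = 2.08e-13) and LUM 81.1-fold above (6.82, adjusted p = 0.00403). In each clone 2 of 3 tested members were called, where 25% of all tested genes were called in KO1 and 16.3% in KO2. Among the rises of all 14585 tested genes, that of DCN ranked 19 in KO1 and 26 in KO2. The 2 comparisons share the WT libraries. The ratios for LUM rest on a WT mean of 4.34 normalized counts, and without WT replicate 2 its change in KO2 was 5.19 with an adjusted p of 0.0581. Fitted on the libraries compared only, LUM in KO2 had an adjusted p of 0.0503.

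The knockout clones were also set against TGF-β-treated WT. DCN was 214-fold higher in KO1 (log2 change 7.74, adjusted p = 1.05e-13) and 90.7-fold higher in KO2 (6.50, adjusted p = 1.12e-12). LUM was 3.57 higher in KO1 (adjusted p = 0.0937) and 2.99 higher in KO2 (adjusted p = 0.186) on the log2 scale, neither of which passed. In each of these comparisons 1 of 3 tested members was called, against 22.7% and 16.9% of all tested genes. With a pseudocount of 5 in place of 1, LUM was called in both (3.43, adjusted p = 0.0117, and 2.86, adjusted p = 0.0379).

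Between the clones, DCN was 2.36-fold higher in KO1 than in KO2 (log2 difference 1.24, SE 0.18, adjusted p = 0.000219), and LUM was not called (0.58, adjusted p = 0.859). So 1 of 3 members was called where 6.97% of all genes were. Quantile normalization lowered the DCN difference to 0.68 (adjusted p = 0.0175), below the fold threshold, and a fit on the 4 libraries alone gave an adjusted p of 0.0576.

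**Figure D3:**
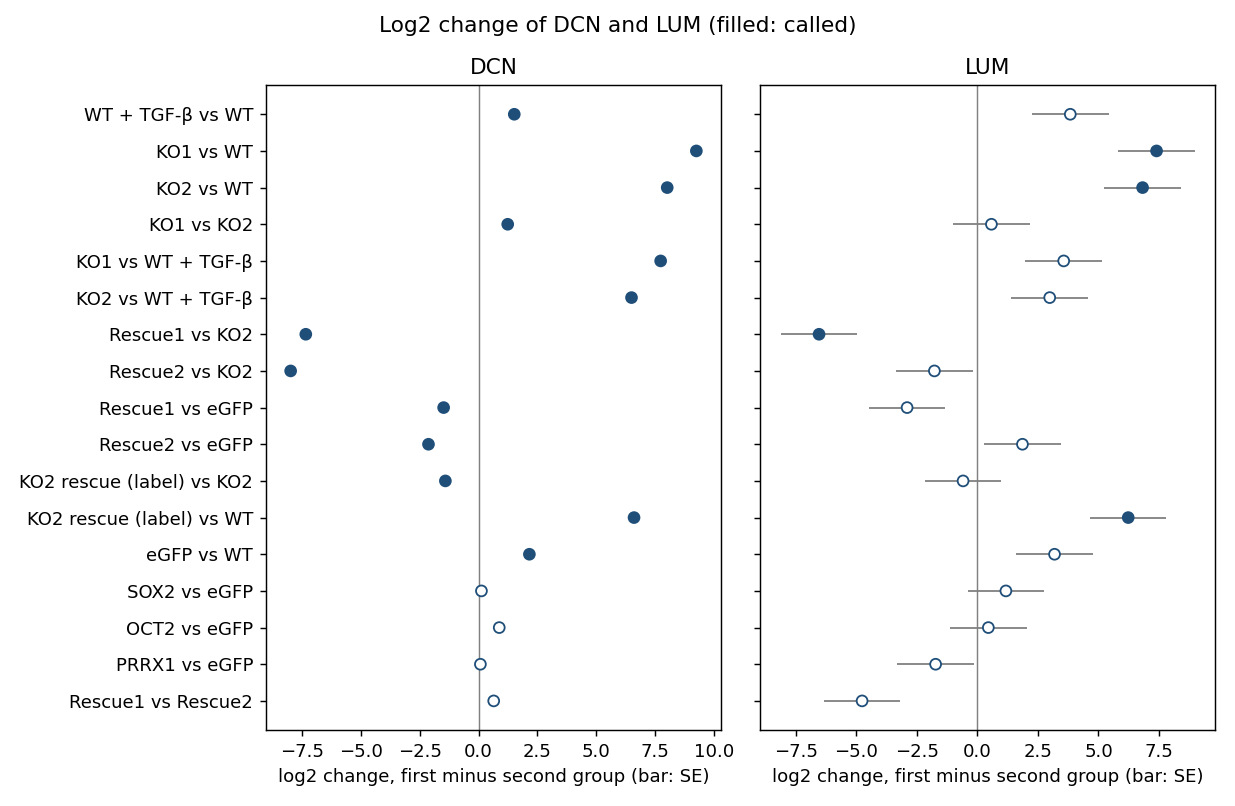
Log2 change of DCN (left) and LUM (right) in each of 17 comparisons, first group minus second, with its standard error (bars). Filled points are called and open points are not. The standard error is 0.18 for DCN and 1.58 for LUM, so that LUM is called only at absolute changes above 6.

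Return of SETD2 was tested in the rescue clones against their parent KO2, which was grown in 2% instead of 10% serum, so that serum and SETD2 cannot be told apart here. DCN was 163-fold lower in Rescue1 (log2 change -7.34, SE 0.18, adjusted p = 9.68e-13) and 254-fold lower in Rescue2 (-7.99, adjusted p = 2.69e-13). LUM fell in Rescue1 (-6.54, SE 1.58, adjusted p = 0.00555) and was -1.78 in Rescue2 (adjusted p = 0.453). The members called were 2 of 3 in Rescue1, where 16.1% of all genes were called, and 1 of 3 in Rescue2, where 15.3% were. Without Rescue1 replicate 2, which has no LUM, the LUM change in Rescue1 was -4.63 (adjusted p = 0.0809). Fitted on the libraries compared only, LUM in Rescue1 had an adjusted p of 0.0626 and LUM in Rescue2 was called (adjusted p = 0.0174).

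At matched serum, the rescue clones held less DCN than the eGFP line. The log2 change was -1.48 in Rescue1 (adjusted p = 2e-05) and -2.13 in Rescue2 (adjusted p = 5.84e-07), or 2.82-fold and 4.41-fold below eGFP by group means. LUM was not called in either (-2.91, adjusted p = 0.206, and 1.86, adjusted p = 0.454). Each comparison called 1 of 3 members, against 12.8% and 11.1% of all genes. Between Rescue1 and Rescue2, limma called 0 of 3 members, where 0.994% of all genes were called, and 2 of the 3 had an unadjusted p under 0.05. DCN differed by 0.64 (adjusted p = 0.108) and LUM by -4.77 (adjusted p = 0.217).

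The line labelled KO2 rescue shared its serum with KO2. DCN was 2.66-fold lower in it than in KO2 (log2 change -1.41, SE 0.18, adjusted p = 8.23e-05) and LUM was -0.59 (adjusted p = 0.907), so 1 of 3 members was called where 4.17% of all genes were. Against WT, DCN was 94.9-fold higher (6.61, adjusted p = 3.48e-12) and LUM 54.3-fold higher (6.23, adjusted p = 0.00937), or 2 of 3 members where 12.7% of all genes were called. The LUM call was lost without WT replicate 2 (4.59, adjusted p = 0.109), without KO2_Rescue replicate 1 (5.99, adjusted p = 0.0586) and in the fit on the 4 libraries alone (adjusted p = 0.0721).

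Vector transduction and 10% serum came together in the eGFP line. DCN was 4.37-fold higher there than in WT (log2 change 2.16, SE 0.18, adjusted p = 5.12e-07), LUM was not called (3.19, adjusted p = 0.161), and 1 of 3 members was called where 12.7% of all genes were. The fit on these 4 libraries alone gave an adjusted p of 0.0551 for DCN.

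The ectopic factors were set against eGFP. The OCT2 line held a mean of 1186 normalized counts of POU2F2, the gene of OCT2, against 318 in eGFP, and the PRRX1 line held 399 of PRRX1 against 0. In limma's test this rise of PRRX1 was called (adjusted p = 0.000148), but that of POU2F2 was not (adjusted p = 0.42). The test thus missed the introduced gene in the OCT2 line, so a lack of calls there does not show a lack of effect. SOX2 was not analysed here. With limma, 0 of 3 members were called in the SOX2, OCT2 and PRRX1 lines, where 0.0206%, 0.0343% and 0.0411% of all genes were called. At an unadjusted p under 0.05 the counts were 0, 1 and 0. The 1 was DCN in the OCT2 line, whose libraries did not overlap with eGFP and whose mean was 1.83-fold higher (log2 change 0.88, SE 0.18, adjusted p = 0.188). DCN differed by 0.12 in the SOX2 line (adjusted p = 0.988) and by 0.08 in the PRRX1 line (adjusted p = 1).

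Genes that build and cut the sugar chains of these proteoglycans were examined next. The counts that follow are to be read against the 7.84% of all tested genes that were called with TGF-β, the 25% in KO1 and the 16.3% in KO2. Of 22 genes of chondroitin and dermatan sulfate synthesis, 15 were tested. In KO1, 7 were higher than in WT and 1 was lower, with a median log2 change of 1.60 against 0 over all genes. In KO2, 4 were higher and 1 lower (median 0.68), and after TGF-β none was higher and 1 was lower (median 0.57). Quantile normalization gave 2 higher and 1 lower in KO2, and 1 higher and 1 lower with TGF-β. DSE, the epimerase that turns chondroitin into dermatan sulfate, held 2087 ± 280 (SD, n = 2) normalized counts in WT. In the clones it held 10378 ± 127 (KO1) and 8540 ± 71.0 (KO2). It returned to 2773 ± 4.97 in Rescue1 and 1989 ± 32.7 in Rescue2. CSGALNACT1, which adds the sugar that starts a chondroitin chain, held 436 in WT, 66.4 after TGF-β, 7005 in KO1, 5070 in KO2, 123 in Rescue1 and 89.6 in Rescue2. Its log2 change was -2.63 under TGF-β, and the clones gave 4.07 (KO1) and 3.60 (KO2), all called. It thus moved in opposite directions under TGF-β and in the knockout clones. CHST11, a chondroitin 4-O-sulfotransferase, was lower in both clones (-2.26 and -2.00). CHPF2, of the chondroitin polymerase complex, was higher in KO1 (1.49). It was also called in KO2, barely past the fold threshold, where quantile normalization gave 0.93.

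Of 9 genes of keratan sulfate synthesis, 6 were tested, of which 1 was higher and 1 lower in KO1 and none was called in KO2 or after TGF-β, with medians of -0.33, 0.34 and -0.24. In KO1 quantile normalization gave 1 higher and 2 lower, and equal totals gave 0 higher and 2 lower, with 1 lower in KO2. B4GALT4 was the one that rose in KO1 (1.26) and SLC35D2, a nucleotide sugar transporter, the one that fell (-1.88). Both calls were lost without WT replicate 1, at 0.92 (adjusted p = 0.0806) and -1.32 (adjusted p = 0.119), and without KO1 replicate 2. FUT8, the core fucosyltransferase, fell from KO2 to Rescue1 (-1.57) and Rescue2 (-1.65). B4GALT1 was not called in these 5 comparisons, and its change in KO1 (-0.99, adjusted p = 4.81e-08) was just short of the fold threshold.

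**Figure D4:**
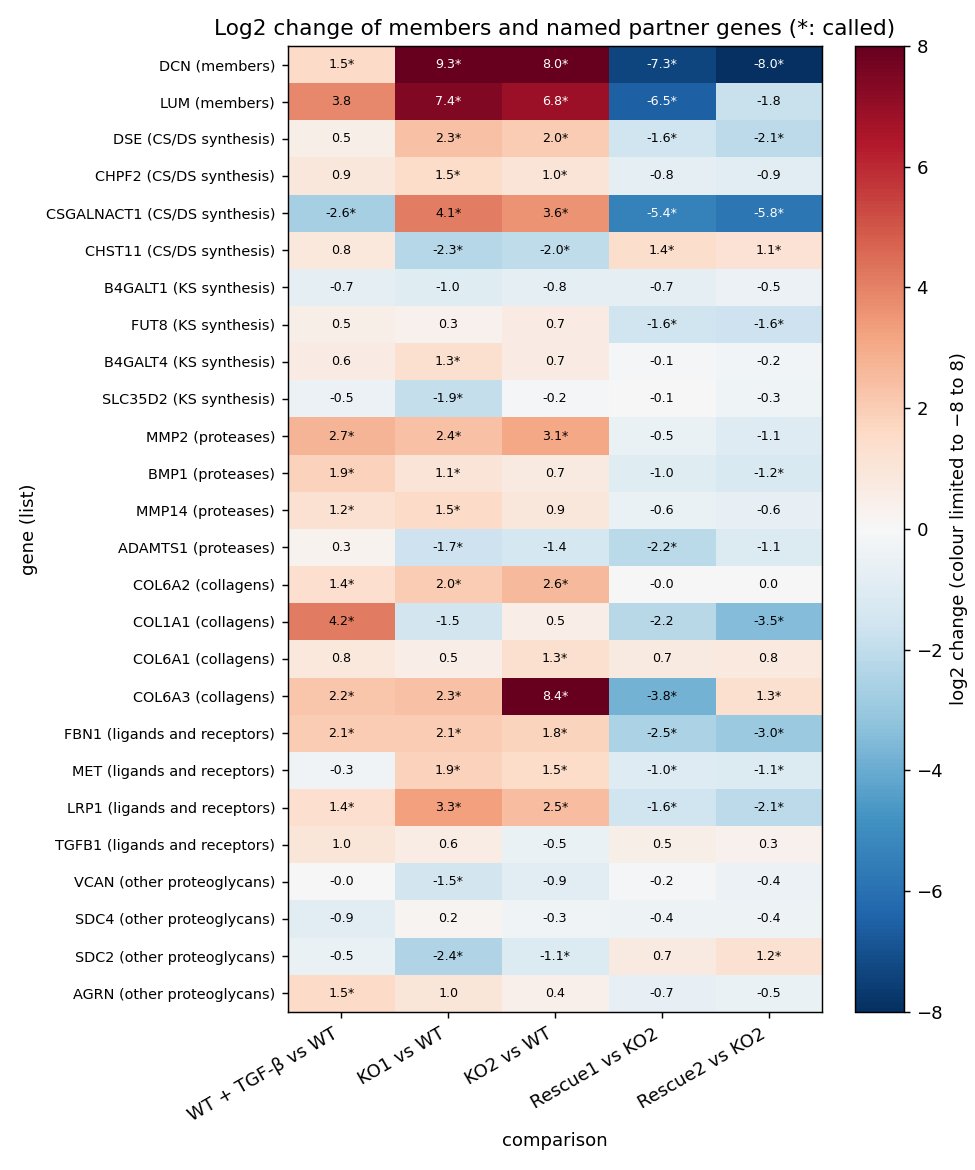
Log2 change of DCN, LUM and the named genes of 6 lists (vertical axis) in 5 comparisons (horizontal axis), with an asterisk where called. COL1A1 is called with TGF-β but in neither knockout clone. CSGALNACT1 and DSE have the sign of DCN in all 4 comparisons of knockout and rescue, as do FBN1, LRP1 and MET.

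Among 13 proteases and cofactors that process core proteins or propeptides, 9 were tested. TGF-β raised 3 and lowered none, KO1 raised 3 and lowered 4, and KO2 raised 1 and lowered 2, with medians of 1.21, -1.68 and -0.79. Equal totals gave 2 higher and 5 lower in KO1. MMP2, a gelatinase that can cut decorin, rose in all 3 (2.74, 2.37 and 3.10). BMP1, which removes the propeptides of decorin and biglycan, rose with TGF-β (1.86). Its call in KO1 (1.05) was lost with quantile normalization (0.88). MMP14, the membrane activator of MMP2, rose in KO1 (1.54), and its rise with TGF-β (1.21) was below the threshold without WT replicate 1 (0.95). ADAMTS1 was called lower in KO1 (-1.68), but not without WT replicate 1 (-1.87, adjusted p = 0.0696), WT replicate 2 (-1.50, adjusted p = 0.144) or KO1 replicate 2 (-0.92, adjusted p = 0.319).

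Collagens are the main binding partners of these proteoglycans. Of 13 fibril-forming and associated chains, 11 were tested. TGF-β raised 4 and lowered none, KO1 raised 3 and lowered 1, and KO2 raised 5 and lowered 1, with medians of 1.37, 0.59 and 0.98. COL5A1, COL6A2 and COL6A3 were called higher in all 3 comparisons, as DCN was. COL1A1, the main chain of collagen I, rose to 45802 ± 1125 (SD, n = 2) with TGF-β (log2 change 4.18). It held 928 ± 161 in KO1 and 3636 ± 163 in KO2, within the range of the 2 WT libraries, and was not called in either (-1.45 and 0.53). COL6A2 changed by 1.37 for TGF-β, 2.00 for KO1 and 2.57 for KO2, and COL6A1 was called higher in KO2 (1.30) and was 0.53 in KO1. COL6A1 in KO1 against KO2 was -0.78 (adjusted p = 5.63e-05), short of the fold threshold. COL6A3, another collagen VI chain, separated the clones, with 94.5 ± 5.75 in KO1 and 6357 ± 118 in KO2, a log2 difference of -6.06 that was called. It also separated the rescue clones, with 456 ± 18.3 in Rescue1 and 15507 ± 999 in Rescue2.

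Of 18 ligands and receptors bound by decorin or biglycan, 14 were tested. TGF-β raised 6 and lowered none, KO1 raised 7 and lowered 2, and KO2 raised 6 and lowered 1, with medians of 0.98, 1.83 and 0.32. In KO2, quantile normalization gave 6 higher and 2 lower, and equal totals 6 and 3. LRP1, the endocytic receptor of decorin, rose from 2267 ± 149 in WT to 5799 ± 756 under TGF-β (log2 change 1.35), 22502 ± 1040 in KO1 and 12515 ± 585 in KO2, and it was 4162 ± 172 in Rescue1 and 2879 ± 341 in Rescue2. FBN1 (fibrillin-1) rose under TGF-β (2.05) and in both clones (2.06 for KO1 and 1.79 for KO2), and fell in Rescue1 (-2.53) and Rescue2 (-2.99) against KO2. MET, the hepatocyte growth factor receptor that decorin binds, rose in KO1 (1.86) and KO2 (1.46), and was -0.27 with TGF-β. TGFB1 was called in none of these comparisons with WT, at 0.99 for TGF-β, 0.61 for KO1 and -0.52 for KO2.

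Of 24 other proteoglycan core proteins, 16 were tested, and the counts called higher and lower were 2 and 0 for TGF-β, 1 and 3 for KO1 and 1 and 1 for KO2, with medians of -0.03, 0.05 and -0.29. In KO1 this was 4 of 16 and in KO2 2 of 16, no more than the share of all genes. With equal totals the counts were 2 and 1 with TGF-β and 1 and 4 in KO2, and with quantile normalization they were 2 and 3 in KO1 and 1 and 2 in KO2. VCAN (versican) fell in KO1 (-1.46), and SDC2 (syndecan-2) fell in KO1 (-2.41) and KO2 (-1.09, but -0.89 without WT replicate 2). AGRN (agrin) rose with TGF-β (1.55). SDC4 was not called in these comparisons.

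The genes around the clusters were compared as well. BTG1, an antiproliferative gene and the nearest protein-coding gene on the DCN side at 957061 bases, ranged from 57.2 to 96.4 normalized counts in WT. Its range was 237 to 250.3 in KO1 and 161 to 228 in KO2. It was called higher in KO1 (log2 change 1.70, adjusted p = 0.00366) and in KO2 (1.36, adjusted p = 0.0199), and lower in Rescue1 (-1.57) and Rescue2 (-1.29) against KO2. The calls other than that in KO1 were lost when single libraries were left out, for KO2 without WT replicate 1 (0.99, adjusted p = 0.165) or KO2 replicate 1 (1.11, adjusted p = 0.148). Those for Rescue1 were lost without KO2 replicate 1 (-1.33) or Rescue1 replicate 1 (-1.42), and those for Rescue2 without KO2 replicate 1 (-1.04) or either Rescue2 library (-1.18 and -1.40). CCER1, on the LUM side of the cluster, was 0 in all 22 libraries. Of the neighbours of the silent members, ATP2B4 (beside the FMOD cluster) and NOL8 and IPPK (beside the OGN cluster) were not called in either knockout clone. CENPP, which overlaps the OGN cluster, was called lower in KO1 (-3.36, adjusted p = 0.0445), on low values. It held 0 and 7.17 normalized counts in KO1, 0 and 9.42 in KO2, and 24.1 and 33.1 in WT. HAUS7, which overlaps BGN, was called lower in KO1 (-1.73, adjusted p = 0.00162).

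Markers of stromal cells were set beside DCN, since the protein is a product of fibroblasts. The summed level of 11 fibroblast markers, members left out, was 866 and 12278 in WT and 45534 to 47051 under TGF-β. It was 1885 to 2249 in KO1, 5838 to 6147 in KO2, 1519 to 1714 in Rescue1 and 1064 to 1154 in Rescue2. COL1A1 made up most of this sum under TGF-β and in the higher WT library. Of 9 fibroblast markers tested, 5 (ACTA2, POSTN, PDGFRA, THY1 and TWIST2) were called higher than WT in KO1 and in KO2, COL3A1 was called lower in KO1 and none was lower in KO2. With TGF-β, COL1A1 and PDGFRA were called higher. Against KO2, POSTN and THY1 were called lower in both rescue clones, as DCN was, and COL1A1 in Rescue2. THY1 had a mean of 14.7 normalized counts in WT, 171 in KO1, 1136 in KO2, 8.78 in Rescue1 and 12.3 in Rescue2, and the part of these markers in the DCN result was not tested. Markers above 3 normalized counts numbered 7 of 11 in WT, 8 in KO1 and 9 in KO2. Among leukocyte markers, CD3E and TYROBP were 0 in every library, whereas CD68 and LYZ were tested. CD68, which is also found in lysosomes of other cells, had a mean of 126 in WT, 287 in KO1 and 167 in KO2, with no call against WT. It was called lower than KO2 in Rescue1 (mean 19.5), Rescue2 (0.43) and the labelled KO2 rescue (16.6), as DCN was, and its part in the DCN result was not tested. LYZ had a mean of 6.45 to 12.8 in the groups named here, and the sum of 6 endothelial markers was 2.66 to 95.9 over all libraries. The summed level of 8 epithelial markers was 36752 to 38447 in WT, 10146 to 12092 in KO1, 19671 to 20645 in KO2, 39131 to 40521 in Rescue1 and 35952 to 36879 in Rescue2. It was 19385 to 20415 in eGFP, which was grown in more serum than WT and KO2, and 39762 to 41017 in the labelled KO2 rescue. Mean DCN was 383 normalized counts in WT, 1675 in eGFP, 36379 in the labelled KO2 rescue and 96676 in KO2. Of these 8 markers, 6 were called lower and 1 higher than WT in KO1, and 4 lower and 1 higher in KO2. The part of these markers in the DCN result was also not tested. In bulk RNA, a change in the number of cells that express a gene and a change in its level per cell cannot be told apart.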

How the data were processed

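RNA from 22 RPTEC libraries was sequenced by the authors with a stranded mRNA kit and quantified with Salmon 1.9.0 on the Ensembl release 94 cDNA of GRCh38 (hg38), with DESeq2 1.26.0 named in the submitters' processing notes. The deposited log2 values run from 11.32 to 21.28 over 36859 genes, and how they were transformed is not given in the sources used here. All libraries share the same lowest value, so they were read as variance-stabilized values and inverted to normalized counts. A shared lowest value does not single out 1 transformation. The normalized counts, folds and ranks per kilobase therefore rest on this reading, which was not checked against the original counts. The plan had assumed normalized counts, and its test was kept. A count test was not run because the deposited unit is not counts. Approximate reads per library were found by dividing the library's total by the normalized count that 1 read gives. Symbols and positions came from GENCODE release 44.

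Groups came from the labels. limma 3.58.1 (R 4.3.3) was fitted with a variance trend to log2(normalized count + 1), a pseudocount of 1, over the 14585 genes that reached 10 normalized counts in 2 or more libraries. A single model with 11 group means took all 22 libraries, and Benjamini-Hochberg adjustment was over all genes of a comparison. Figures used Python 3.11.15, numpy 2.4.6, pandas 2.3.3 and matplotlib 3.10.9. The procedure was tested on simulated data. The members, gene lists and markers were chosen with earlier results of these data known. From each further list up to 4 genes were named, those with the highest mean among genes called in any comparison, and for each tested member the 3 genes with the highest Pearson correlation. Medians of lists are over the tested genes. The fit was repeated with a pseudocount of 0.5 or 5, without the filter, with a filter on a mean of 50, and with quantile normalization, equal totals, the deposited log2 values, only the libraries compared, a replicate block, Spearman correlation, canonical transcript length, and each library left out.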

Additional observations from a re-analysis of the deposited data

Results flagged for a closer look

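The difference in DCN between the 2 SETD2 knockout clones was singled out because both clones were set against the same WT libraries and their difference itself passed the test. DCN was higher in KO1 than in KO2 by a log2 difference of 1.24 (limma, adjusted p = 0.000219), with both KO1 libraries above both KO2 libraries. Quantile normalization lowered it to 0.68 (adjusted p = 0.0175), below the fold threshold, and a fit on the 4 libraries alone gave an adjusted p of 0.0576. The clones share 1 guide RNA and differ as clones, so that the clone and any other difference between the cultures cannot be told apart. The summed level of 8 epithelial markers was 10146 to 12092 in KO1 and 19671 to 20645 in KO2, and its part in the DCN difference was not tested.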

How the results depend on the processing

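Of 17 counts of called members, none changed with a pseudocount of 0.5, without the filter, with a filter on a mean of 50, with equal totals or with a replicate block. Quantile normalization changed 1, from 1 to 0 members in KO1 against KO2. A pseudocount of 5 raised the count from 1 to 2 in KO1 and KO2 against TGF-β-treated WT, through LUM. On the deposited log2 scale, where the fold is compressed, the count was 0 for TGF-β and eGFP against WT and for Rescue1 and Rescue2 against eGFP, and 1 for KO1, KO2 and labelled KO2 rescue against WT and for Rescue1 against KO2. The size of this compression rests on the assumed inversion, because the transformation is not given. All DCN and LUM changes called on the count scale kept their sign and an adjusted p of at most 0.00124 on the deposited scale. Over the repeated fits that kept every library of the groups compared, the lowest change against WT in KO1 was 5.96 for DCN and 0.62 for LUM. In KO2 these lowest changes were 4.76 and 0.49. The large folds over WT therefore depend on the inversion. Fitted on the libraries compared only, the count was 0 for TGF-β against WT, KO1 against KO2 and eGFP against WT. It was 1 for KO2 and labelled KO2 rescue against WT and for Rescue1 against KO2, and it was 2 for Rescue2 against KO2. Such fits have fewer samples.

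With each library left out in turn, the count of called members ran from 1 to 2 for KO2 against WT, labelled KO2 rescue against WT and Rescue1 against KO2, and did not change in the other 14 comparisons. DCN kept its call in each comparison where it was called, with a log2 change of 8.90 to 9.62 in KO1 and 7.66 to 8.38 in KO2 against WT. Signs turned only among uncalled changes against eGFP, to -0.04 for DCN in the SOX2 line and -0.09 in the PRRX1 line without WT_eGFP replicate 1, to -0.09 for DCN without WT_PRRX1 replicate 2, and to 1.37 for LUM without WT_PRRX1 replicate 1. The other ends of these ranges were 0.29 for DCN in the SOX2 line, 0.25 for DCN in the PRRX1 line and -4.82 for LUM in the PRRX1 line. Of 129 calls of named genes other than the members, 34 were lost with at least 1 library left out or under quantile normalization or equal totals, and none turned sign.

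Libraries with the same replicate number did not deviate together (correlations of -0.082 to 0.035, 0 of 17 comparisons above 0.1), so that they share only a number. The replicate block changed no call of DCN or LUM, with 2 members called in KO1 and in KO2 against WT and 1 with TGF-β.

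Equal totals moved the median of all genes to -0.392 (log2) in KO1, -0.204 in KO2 and -0.199 with TGF-β, all against WT, and DCN changed by 8.85, 7.79 and 1.28 there. The calls over all genes were then 1161 higher and 3006 lower in KO1, against 1744 and 1909, and 358 and 935 with TGF-β, against 522 and 621. In KO2 they were 1076 and 1519, against 1315 and 1063. The correlation of DCN and LUM was 0.727 by Spearman, and with canonical transcripts DCN ranked 24 in KO1. Depth and duplicates limit LUM, which was 0 in 3 libraries.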
